A study of Homo sapiens with 6 samples.

Results

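The proteasome genes described here are the protein-coding genes whose symbols start with PSMA to PSMG and a number, 50 of the 63140 genes listed for each culture. Of these 50 genes, 48 had enough reads to be tested for a difference between adipocyte-conditioned medium (ACM) and unconditioned medium (UCM). PSMA8, a subunit of the testis proteasome, had 0 counts in every library, and PSMB11, the catalytic subunit of the thymus proteasome, had 2 counts in UCM replicate 3 and 0 in the other 5 libraries. PSMC3IP and PSME3IP1 carry symbols of the same form but encode interacting proteins and not subunits, and they are counted among the 48.

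BT-549 is a human line of triple negative breast cancer, used with wild-type genotype, and RNA was sequenced from 3 cultures kept for 24 h in ACM and 3 kept as long in UCM. ACM had been kept on OP9 mouse cells during their differentiation to adipocytes, in a medium with insulin, oleate and albumin. The sample labels give 50% ACM, whereas the supplement of the paper states that ACM was used undiluted for RNA-seq, and the formula of UCM is not given in the sources used here. Medium components and adipocyte secretions therefore cannot be told apart as the source of a difference. The labels do not say whether replicates came from separate passages or days, so the p-values measure the spread between these 3 wells per medium. Expected counts summed to between 17135288 and 21053257 per library. The labels call the cells epithelial, but EPCAM, KRT5, KRT8 and KRT18 had a mean of at most 0.455 CPM (counts scaled by library size) in either medium, while VIM, a mesenchymal filament gene, stood at 3168 CPM in ACM against 2930 CPM in UCM. The receptor genes ESR1 and PGR had 0 counts in every library, and ERBB2 (log2 FC 0.12) and CDH1 (log2 FC -0.56, at 0.848 CPM in ACM) were not called by edgeR.

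The proteasome degrades proteins that are tagged with ubiquitin. Its 20S core is a barrel of outer alpha rings and inner beta rings, of which PSMB5, PSMB6 and PSMB7 carry the catalytic sites, and the 19S cap recognises, unfolds and feeds in the substrate with a ring of ATPases (PSMC genes) and a set of other subunits (PSMD genes). In cells exposed to interferon, the catalytic subunits PSMB8, PSMB9 and PSMB10 take the places of PSMB5, PSMB6 and PSMB7 in newly made particles, called immunoproteasomes, and the activator PA28, made of PSME1 and PSME2, is induced with them. The immunoproteasome is known for cutting peptides that class I molecules present. When proteasome activity falls short, the transcription factor NFE2L1 is known to raise the constitutive subunit genes together through antioxidant response elements.

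The fitted values of all 31 constitutive 20S and 19S genes lay slightly below 0 in ACM, with a median of -0.15. Of these, 3 passed the adjusted p (9.68%, against 2.21% of all genes) and 14 the unadjusted p (45.2%, against 11.5%). The fitted values of the immunoproteasome genes showed no common direction, but the 95% confidence intervals of PSMB8, PSMB9 and PSMB10 each held -0.15. Constitutive and immunoproteasome genes were thus not shown to differ. The fitted log2 FC of ACM over UCM was below 0 for 42 of the 48 tested genes (87.5%), against 51.9% of all 14451 genes tested. The median log2 FC over the 48 genes was -0.14, a fold of 0.909, while the median over all genes tested was -0.01. Differences were small, from -0.37 for PSMA4 to 0.10 for PSME1, and no gene of the 48 reached 0.58 on the log2 scale in either direction, where 4.12% of all genes were higher and 1.71% were lower past that size at an unadjusted p of 0.05 or less. By edgeR's quasi-likelihood test with Benjamini-Hochberg adjustment over all genes tested, 3 of the 48 were lower at an adjusted p of 0.05 or less, where the share of all genes called lower was 2.21%. At an unadjusted p of 0.05 or less, 18 of the 48 were lower (37.5%), against 11.5% of all genes. None was higher at the adjusted p-value (3.35% of all genes) with edgeR, DESeq2 or limma, and 0 were higher at the unadjusted p-value (11.9% of all genes). These shares describe the list, and no test of the list as a whole was made.

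**Figure D1:**
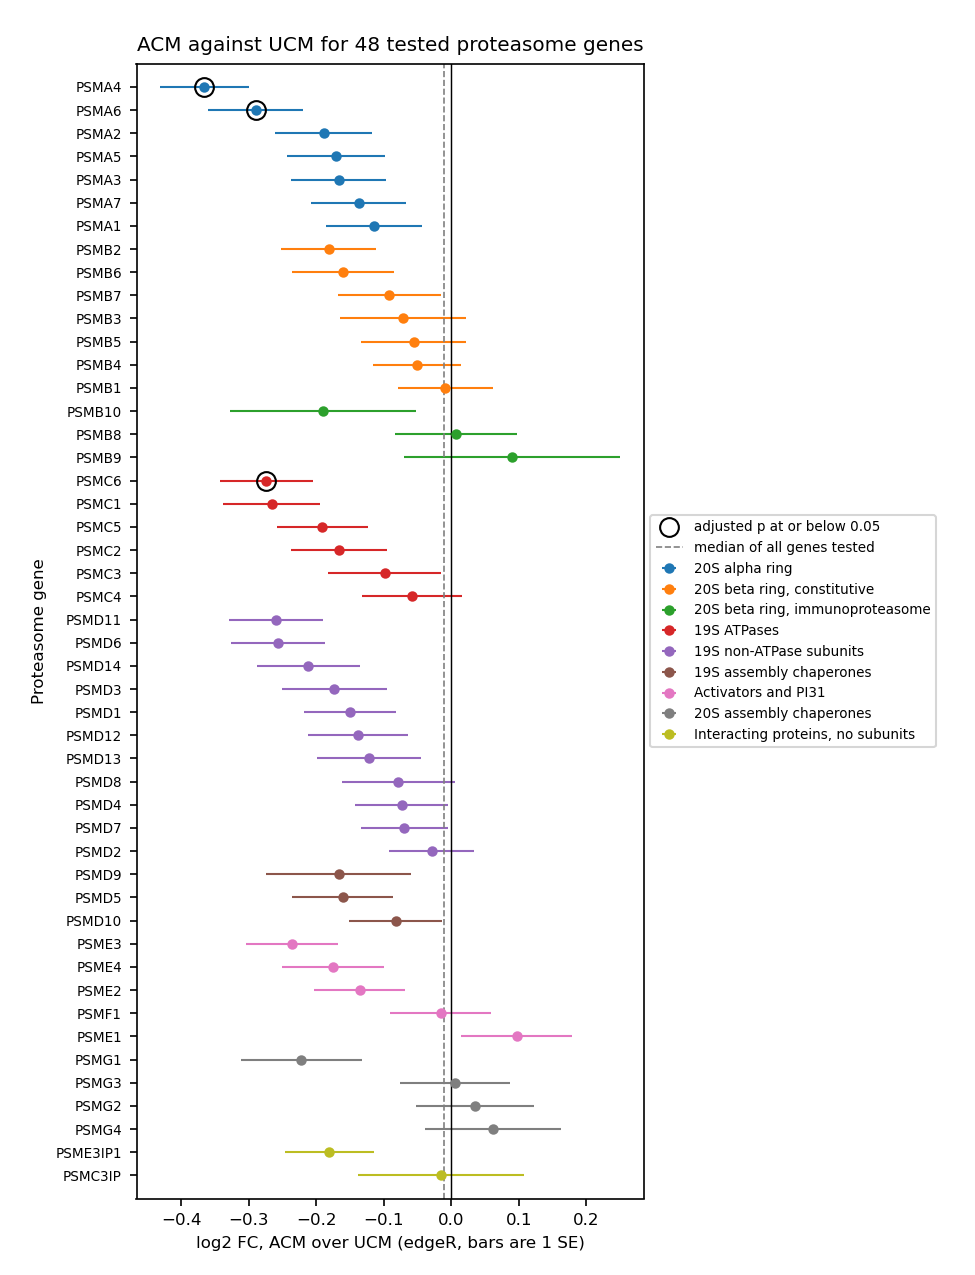
Log2 FC of ACM over UCM from edgeR (horizontal axis) for each of the 48 tested proteasome genes (vertical axis), coloured by role, with bars of 1 standard error (SE). The 31 constitutive 20S and 19S subunits all lie left of 0, PSMA4, PSMA6 and PSMC6 are circled for an adjusted p of 0.05 or less, and the dashed line is the median of all genes tested.

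In the cultures themselves, all 3 ACM values lay below all 3 UCM values for 20 of the 48 genes (41.7%), against 15.1% of all genes tested, and for 0 of the 48 did all 3 ACM values lie above UCM, against 13.9%. UCM replicate 1 lay closer to the ACM cultures than the other UCM replicates did. Relative to the mean of UCM, the median over the 48 genes was -0.09 on the log2 scale in UCM replicate 1, 0.06 in UCM replicate 2 and 0.04 in UCM replicate 3. In ACM it was -0.17, -0.15 and -0.07 in replicates 1, 2 and 3, so that ACM replicate 3 lay above UCM replicate 1 in this median and the groups overlapped. Over all genes tested, the same medians lay between -0.02 and 0.01 in all 6 libraries. Without UCM replicate 1, the ACM values lay below UCM for 37 of the 48 genes (77.1%), against 25.4% of all genes, and without ACM replicate 3 for 28 (58.3%), against 21.2%. Without ACM replicate 1 the number stayed at 20 (41.7%), against 21.9% of all genes. Dropping a library cannot lower such a number. The number of genes with a log2 FC below 0 lay between 41 and 44 when single libraries were dropped.

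**Figure D2:**
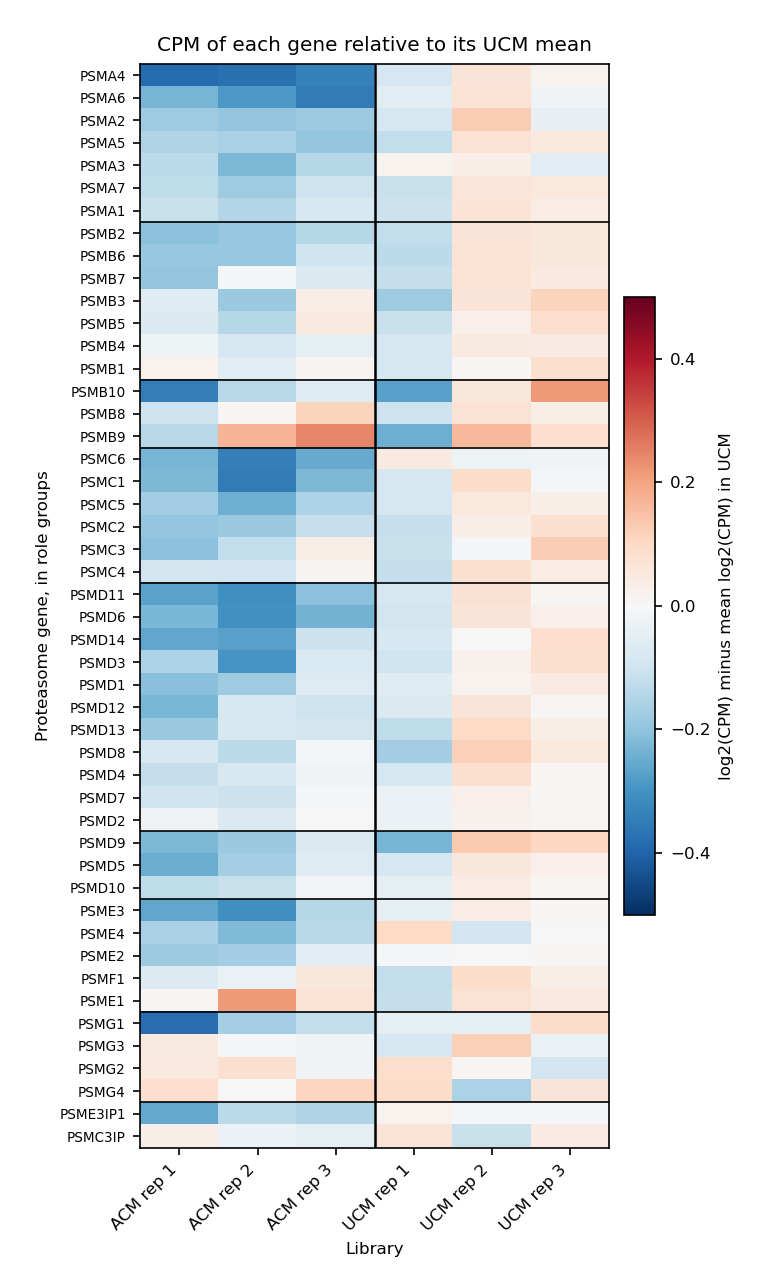
Log2 CPM of each tested proteasome gene (rows, in groups of role) in each library (columns) minus the mean of log2 CPM over the 3 UCM libraries, where blue is lower and red is higher. The ACM columns are mainly blue, with a median of -0.07 in ACM replicate 3, and UCM replicate 1 is bluer than UCM replicates 2 and 3, with a median of -0.09.

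The levels of the subunit genes were compared per length, in TPM, a scale that corrects each library for transcript length as well as depth. In UCM, the tested constitutive 20S and 19S genes ranged from 64.0 TPM for PSMD12 to 908 TPM for PSMA7. PSMA7, an alpha ring subunit, had the highest level of the 50 genes, followed by the beta ring genes PSMB4 (485 TPM) and PSMB7 (453 TPM). PSMB8 and PSMB10 averaged 60.7 and 61.7 TPM in UCM, and PSMB9 averaged 20.3 TPM. The lowest levels among tested genes were 15.7 TPM for PSME4, which encodes the activator PA200, and 18.2 TPM for PSMC3IP. The 31 constitutive subunits summed to 6295, 6024 and 6598 TPM in ACM and to 6685, 7217 and 7199 TPM in UCM. In TPM, the sum in every ACM culture was thus below that in every UCM culture, with means of 6306 ± 287 and 7034 ± 302 TPM (SD, n = 3 each). The sums of the alpha ring and of the 19S ATPases did not overlap between the media either, at 1783 to 1920 TPM in ACM and 2069 to 2249 TPM in UCM for the alpha ring and 841 to 943 TPM and 990 to 1060 TPM for the ATPases. The sums of the 7 constitutive beta ring genes, 1889 to 2056 TPM in ACM and 1970 to 2185 TPM in UCM, overlapped, as did those of the 11 other 19S subunits, at 1511 to 1679 TPM in ACM and 1656 to 1799 TPM in UCM. All these sums are of TPM, and a separation of the sums in CPM was not shown. PSMA7, the largest term, was apart in TPM, at 773 to 845 in ACM and 857 to 936 in UCM. Its CPM overlapped, with 402 in ACM replicate 3 and 399 in UCM replicate 1. In bulk RNA, fewer cells with a high level and a lower level in every cell cannot be told apart.

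**Figure D3:**
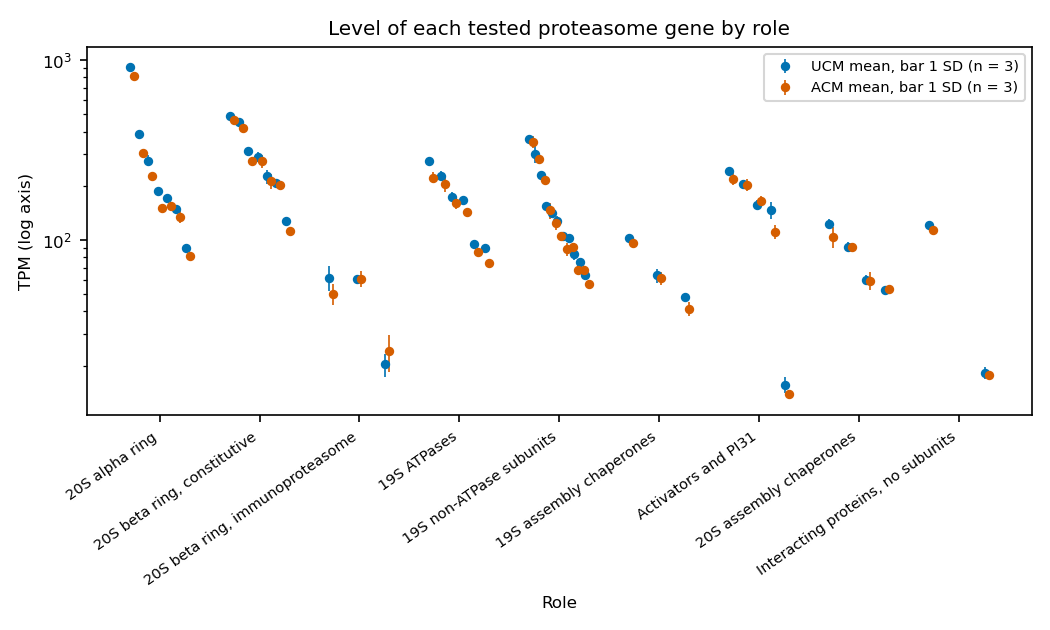
Mean TPM (log axis) of each tested proteasome gene in UCM and ACM, with genes ordered by level within each role and bars of 1 SD over 3 cultures. The immunoproteasome genes lie between 20.3 and 61.7 TPM in UCM, below all constitutive beta ring genes.

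Within the 20S alpha ring, all 7 tested genes had a log2 FC below 0, against 51.9% of all genes, with a median of -0.17. Of the 7, 2 passed the adjusted p-value (28.6%, against 2.21% of all genes called lower). PSMA4 (ENSG00000041357, chromosome 15, from 78540405 to 78552417 in GRCh38) had 126, 127 and 130 CPM in ACM replicates 1, 2 and 3 and 155, 172 and 166 CPM in UCM. The groups did not overlap, and the difference was larger than the spread between replicates. The means were 127 ± 2.25 CPM and 164 ± 8.58 CPM (SD, n = 3 each), and the log2 FC was -0.37 (standard error, SE, of 0.07, edgeR adjusted p = 0.0135). Its adjusted p-value lay between 3.78e-04 and 0.0866 over the alternatives, at or below 0.05 in 12 of 15. PSMA6 (ENSG00000100902, chromosome 14, from 35278633 to 35317493) had 79.8, 76.7 and 73.4 CPM in ACM and 90.2, 98.5 and 92.4 CPM in UCM. Here too every ACM value lay below every UCM value. Its log2 FC was -0.29 (SE 0.07, edgeR adjusted p = 0.0404), with an adjusted p-value between 0.0156 and 0.192 over the alternatives. PSMA6 overlaps a protein-coding gene of the same strand, ENSG00000258790, and its expected counts were not whole in any library, so some of its reads were shared out by RSEM. The other alpha ring genes, PSMA2, PSMA5, PSMA3, PSMA7 and PSMA1, had a log2 FC between -0.19 and -0.11, of which PSMA2, PSMA5 and PSMA3 passed the unadjusted p. In all, 5 of the 7 alpha ring genes were lower at the unadjusted p (71.4%, against 11.5% of all genes).

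In the constitutive beta ring the median log2 FC was -0.07, and all 7 genes were below 0. None passed the adjusted p-value with edgeR, and 1, PSMB2, was lower at the unadjusted p-value (log2 FC -0.18, SE 0.07, edgeR adjusted p = 0.155). This share of 14.3% was near the 11.5% of all genes. PSMB5, which carries the chymotrypsin-like site, had 146, 139 and 158 CPM in ACM and 142, 156 and 163 CPM in UCM. PSMB6, with the caspase-like site, had 103, 103 and 110 CPM in ACM and 107, 124 and 122 CPM in UCM. PSMB7, with the trypsin-like site, had 194, 220 and 211 CPM in ACM and 204, 232 and 229 CPM in UCM. For each of these catalytic subunits the ACM and UCM values overlapped. Their log2 FC was -0.06 (95% confidence interval -0.23 to 0.12) for PSMB5, -0.16 (-0.33 to 0.01) for PSMB6 and -0.09 (-0.26 to 0.08) for PSMB7. The remaining genes, PSMB1, PSMB3 and PSMB4, had values between -0.07 and -0.01.

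Of the 6 ATPase genes of the 19S cap, all were below 0 with a median log2 FC of -0.18. Among them 1, PSMC6, passed the adjusted p-value (16.7%, against 2.21% of all genes called lower). PSMC6 (ENSG00000100519, chromosome 14, from 52707178 to 52728590) had 65.6, 60.8 and 64.7 CPM in ACM and 79.4, 75.6 and 76.1 CPM in UCM. Its highest ACM value was below its lowest UCM value. The means were 63.7 ± 2.54 and 77.0 ± 2.03 CPM (SD, n = 3 each), a log2 FC of -0.27 (SE 0.07, edgeR adjusted p = 0.0470). This call was the least stable of the 3, with an adjusted p-value between 0.0248 and 0.182 over the alternatives and at or below 0.05 in 4 of 15. PSMC1 had a log2 FC of -0.27 (SE 0.07, edgeR adjusted p = 0.0596), with 128, 117 and 127 CPM in ACM and 141, 159 and 148 CPM in UCM. PSMC1 has a processed pseudogene, PSMC1P1, with 4 to 17 counts per library, and its own expected counts were not whole in any library. PSMC5 and PSMC2 had values of -0.19 and -0.17, and PSMC3 and PSMC4 of -0.10 and -0.06.

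Of the 11 other subunits of the 19S cap, all were below 0 with a median log2 FC of -0.14. With edgeR 0 passed the adjusted p-value, and the unadjusted p-value called 4 lower (36.4%, against 11.5% of all genes). PSMD11 and PSMD6, scaffold subunits of the lid, were nearest, with a log2 FC of -0.26 each (edgeR adjusted p = 0.0567 and 0.0604). PSMD11 had 101, 98.5 and 106 CPM in ACM against 115, 128 and 122 CPM in UCM. PSMD6 had 84.8, 80.7 and 84.4 CPM in ACM against 93.3, 104 and 101 CPM in UCM. In both genes the groups did not overlap. PSMD14, the enzyme that removes ubiquitin from substrates at the entry to the core, had a log2 FC of -0.21 (SE 0.08, edgeR adjusted p = 0.130). PSMD2, a large base subunit and substrate receptor, was nearest to 0 with -0.03 (SE 0.06). The assembly chaperones of the cap, PSMD5, PSMD9 and PSMD10, had values of -0.16, -0.17 and -0.08, with overlapping groups.

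**Figure D4:**
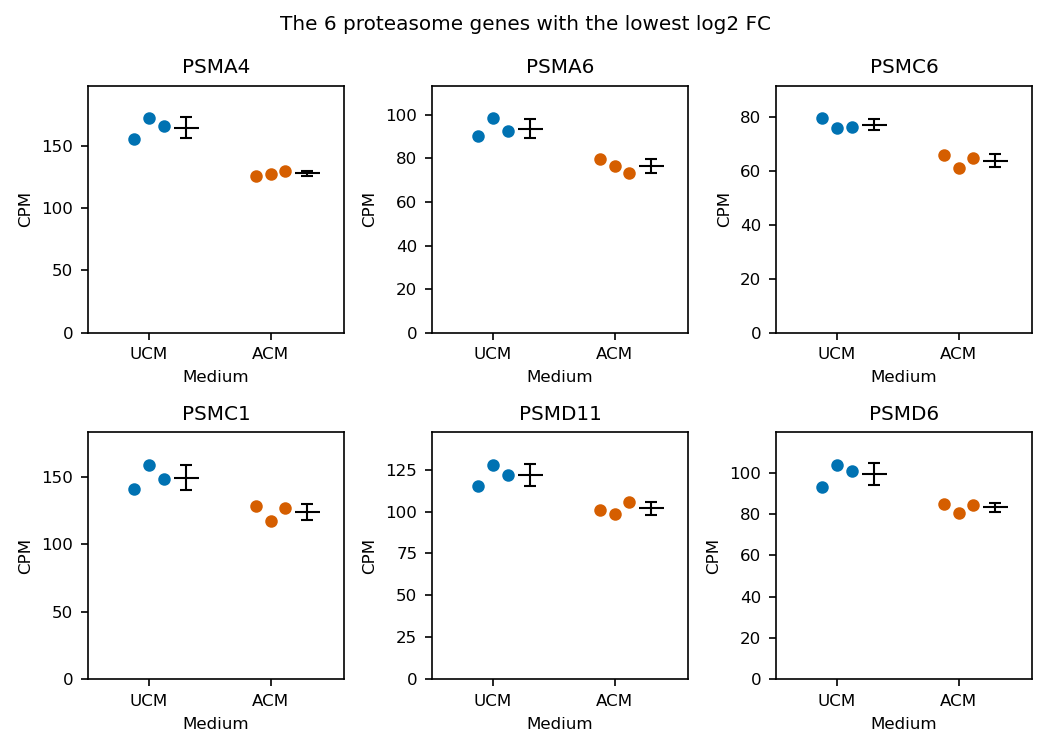
CPM in each of the 3 UCM and 3 ACM cultures (points) with the mean and 1 SD (black) for the 6 genes with the lowest log2 FC. The UCM points of PSMA4 lie between 155 and 172 CPM and its ACM points between 126 and 130 CPM, and the groups are apart in all 6 panels.

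The calls depended on single cultures. At the adjusted p-value, 0 of the 48 genes were lower without ACM replicate 2, without UCM replicate 2 or without UCM replicate 3. At the unadjusted p-value with edgeR these were 9, 10 and 7, for which the shares of all genes are not reported here. At the adjusted p-value, 1 was lower without ACM replicate 1 or ACM replicate 3, and 6 without UCM replicate 1. The shares of all genes called lower moved with them, from 0.42% without UCM replicate 3 to 3.9% without UCM replicate 1. The median log2 FC of the 48 genes stayed between -0.16 and -0.10 in these fits. DESeq2 on the same counts called 5 of the 48 lower, the same 3 together with PSMC1 and PSMD11, where it called 3.07% of all genes lower.

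The immunoproteasome subunits were detected in every culture, and none of the 3 differed between the media at either p-value (0 at the unadjusted p-value with edgeR). PSMB8 (ENSG00000204264, chromosome 6, from 32840717 to 32844679) had 35.5, 38.4 and 41.3 CPM in ACM and 35.5, 40.1 and 39.0 CPM in UCM. Its log2 FC was 0.01 (SE 0.09), with a 95% confidence interval from -0.19 to 0.21. PSMB9 (ENSG00000240065, chromosome 6, from 32844136 to 32859851) had 9.12, 11.3 and 11.9 CPM in ACM and 8.48, 11.2 and 10.7 CPM in UCM. The log2 FC of PSMB9 was 0.09 (SE 0.16), with an interval from -0.26 to 0.44. PSMB10 (ENSG00000205220, chromosome 16, from 67934506 to 67936864) had 16.4, 19 and 20.1 CPM in ACM and 17.3, 21.8 and 24.3 CPM in UCM, a log2 FC of -0.19 (SE 0.14), with an interval from -0.50 to 0.11. In all 3 genes the groups overlapped, and for PSMB8 and PSMB9 the sign of the log2 FC changed without UCM replicate 1. These intervals are those of the counts alone, and with effective lengths as offsets the log2 FC of PSMB9 was 0.26 (SE 0.20). PSMB8 and PSMB9 overlap each other on opposite strands, PSMB9 overlaps TAP1, and the strand setting of the counting is not given in the sources used here.

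**Figure D5:**
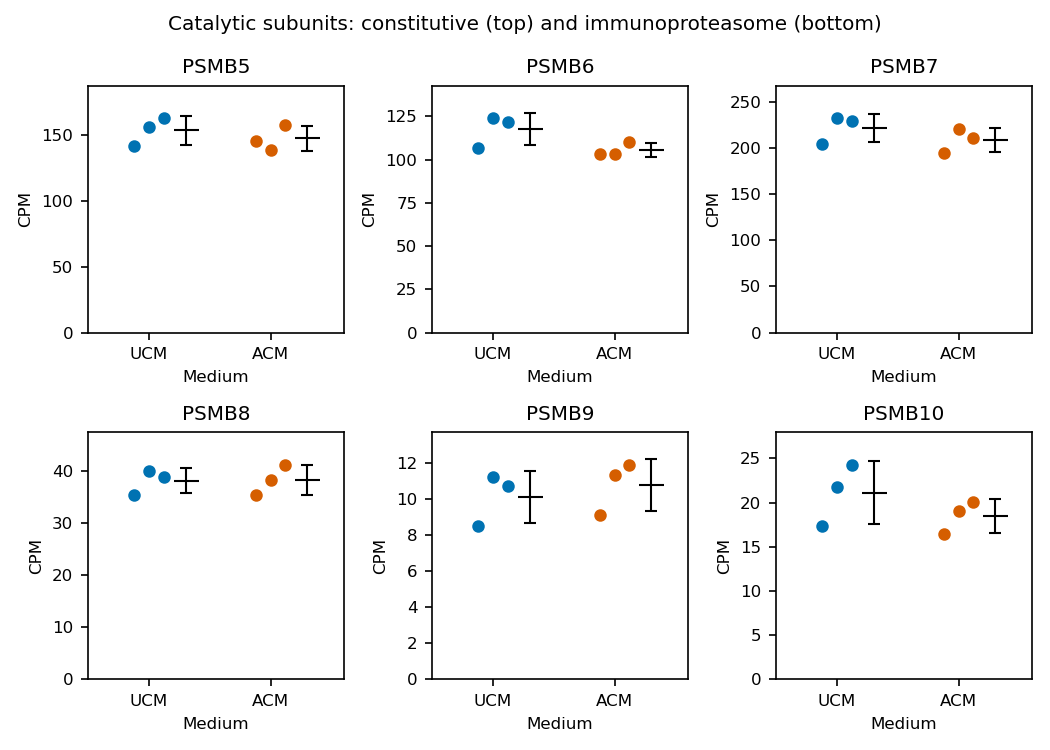
CPM in each UCM and ACM culture (points) with the mean and 1 SD (black) for the constitutive catalytic subunits (top) and the immunoproteasome subunit that replaces each (bottom). UCM and ACM points overlap in all 6 panels, for example 35.5 to 40.1 CPM in UCM and 35.5 to 41.3 CPM in ACM for PSMB8.

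To contrast the constitutive with the immunoproteasome, the log2 ratio of each immunoproteasome subunit to the subunit it replaces was taken in each culture. For PSMB8 over PSMB5, the ratio of CPM was -2.02, -1.84 and -1.93 in ACM and -1.98, -1.94 and -2.05 in UCM, a difference of 0.06 (SE 0.06, exact permutation test, two-sided, p = 0.4, n = 3 each). For PSMB9 over PSMB6, it was -3.43, -3.13 and -3.15 in ACM and -3.58, -3.40 and -3.46 in UCM, a difference of 0.25 (SE 0.11, exact permutation test, two-sided, p = 0.2). For PSMB10 over PSMB7, it was -3.52, -3.50 and -3.36 in ACM and -3.52, -3.39 and -3.21 in UCM, a difference of -0.09 (SE 0.10, exact permutation test, two-sided, p = 0.7). The 3 ratios were the only ones compared, and with 3 cultures against 3 the smallest p-value that the test can give is 0.1. All 3 ratios overlapped between the media. As a share of the TPM of each pair, PSMB8 made up 18.2% ± 1.07 in ACM and 17.3% ± 0.402 in UCM, PSMB9 7.98% ± 1.29 and 6.10% ± 0.539, and PSMB10 10.6% ± 0.996 and 11.9% ± 1.16 (SD, n = 3 each). On the TPM scale the shares of PSMB9 did not overlap, with 7.08%, 7.40% and 9.45% in ACM and 5.52%, 6.58% and 6.21% in UCM (a difference in log2 ratio of 0.40, exact permutation test, two-sided, p = 0.1). The effective length of PSMB9 averaged 646 bases in ACM and 714 bases in UCM, which raises its TPM in ACM relative to its counts.

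The activators differed among themselves. PSME1 and PSME2, the paired subunits of PA28, had opposite signs, with a log2 FC of 0.10 (SE 0.08) and -0.14 (SE 0.07), neither at the unadjusted p-value. PSME1 had 75.3, 86.6 and 78.4 CPM in ACM and 68.8, 78.6 and 77.4 CPM in UCM, and the groups overlapped. PSME2 had 77.5, 78.1 and 84.7 CPM in ACM and 87.6, 88.1 and 88.3 CPM in UCM, with every ACM value below UCM. PSME3, the nuclear activator PA28 gamma, which interferon is not known to induce, had 164, 159 and 178 CPM in ACM and 191, 202 and 198 CPM in UCM. Its groups did not overlap, with a log2 FC of -0.24 (SE 0.07, edgeR adjusted p = 0.0704). PSME4 had 65.9, 63.2 and 66.9 CPM in ACM and 78.9, 68.9 and 73.5 CPM in UCM, a log2 FC of -0.18 (SE 0.08, edgeR adjusted p = 0.190), also with groups apart. PSMF1, the inhibitor PI31, had a log2 FC of -0.02 (SE 0.08).

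Assembly factors of the 20S core did not share a direction. PSMG1 had 42.5, 49.2 and 50.8 CPM in ACM and 53.6, 53.5 and 59.0 CPM in UCM, a log2 FC of -0.22 (SE 0.09, edgeR adjusted p = 0.166), whereas PSMG2, which pairs with it, had 0.03 (SE 0.09). PSMG3 and PSMG4, which form the other chaperone pair, had 0.01 and 0.06. PSMG4 had 24.2, 22.9 and 24.6 CPM in ACM and 24.3, 20.5 and 23.9 CPM in UCM, and the sign of its small difference changed with TPM. Of the interacting proteins, PSME3IP1 had a log2 FC of -0.18 (edgeR adjusted p = 0.133) and PSMC3IP, a meiotic recombination factor, -0.02.

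Promoters are shown for the 3 genes that passed the adjusted p-value and for PSMB10, PSME1 and PSME2, whose windows held the core of an interferon-stimulated response element. Each is the RefSeq sequence of GRCh38.p14 for the 250 bases before the gene's start, on the strand of the gene, and capitals mark matches to 5 motifs on either strand. These were TGACNNNGC for the antioxidant response element, CCAAT for the CCAAT box, GGGCGG for the GC box, GAAA, any 2 bases and GAAA again for the interferon-stimulated response element and TTCNNNGAA for the gamma-activated site, each searched separately so that overlapping matches count for each. PSMA4 lies at chr15:78540155-78540404 and PSMA6 at chr14:35292067-35292316. PSMC6 lies at chr14:52706950-52707199 and PSME1 at chr14:24135944-24136193, all on the plus strand. The RefSeq starts of PSMA6, PSMC6, PSME1, PSMB10 and PSME2 lie inside the gene that GENCODE gives. For PSMA6 and PSME2 the whole window lies within that gene, and for PSMC6, PSME1 and PSMB10 a part of it does. PSMB10 at chr16:67936851-67937100 and PSME2 at chr14:24146611-24146860 are on the minus strand.
PSMA4: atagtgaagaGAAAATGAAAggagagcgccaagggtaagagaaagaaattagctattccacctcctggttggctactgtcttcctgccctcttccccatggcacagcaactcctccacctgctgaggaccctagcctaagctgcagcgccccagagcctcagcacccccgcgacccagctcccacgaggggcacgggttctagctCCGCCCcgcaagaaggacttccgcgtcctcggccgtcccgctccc
PSMA6: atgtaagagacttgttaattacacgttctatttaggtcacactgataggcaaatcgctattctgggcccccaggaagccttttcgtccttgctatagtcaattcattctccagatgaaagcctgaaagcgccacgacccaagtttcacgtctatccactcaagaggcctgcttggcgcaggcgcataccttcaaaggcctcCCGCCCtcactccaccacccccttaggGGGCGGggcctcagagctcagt
PSMC6: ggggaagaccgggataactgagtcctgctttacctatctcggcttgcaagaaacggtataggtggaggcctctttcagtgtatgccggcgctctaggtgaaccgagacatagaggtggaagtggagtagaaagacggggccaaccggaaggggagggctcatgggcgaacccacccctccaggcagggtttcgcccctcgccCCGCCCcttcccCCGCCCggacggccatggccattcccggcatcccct
PSMB10: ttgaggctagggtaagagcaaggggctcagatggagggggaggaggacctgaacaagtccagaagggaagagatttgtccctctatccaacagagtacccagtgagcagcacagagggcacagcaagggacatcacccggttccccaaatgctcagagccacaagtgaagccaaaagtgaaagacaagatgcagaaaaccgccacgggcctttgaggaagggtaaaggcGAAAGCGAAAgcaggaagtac
PSME1: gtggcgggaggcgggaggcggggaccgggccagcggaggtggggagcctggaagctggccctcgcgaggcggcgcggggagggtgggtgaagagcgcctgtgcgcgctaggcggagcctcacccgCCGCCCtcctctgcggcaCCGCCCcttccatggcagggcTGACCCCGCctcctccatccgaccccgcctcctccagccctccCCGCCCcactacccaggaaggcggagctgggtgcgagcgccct
PSME2: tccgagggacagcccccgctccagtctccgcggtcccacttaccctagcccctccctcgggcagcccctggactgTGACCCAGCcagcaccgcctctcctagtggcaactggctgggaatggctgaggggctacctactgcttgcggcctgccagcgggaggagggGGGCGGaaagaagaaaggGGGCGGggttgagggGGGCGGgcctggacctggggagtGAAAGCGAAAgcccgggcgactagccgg

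The matches in these windows are descriptions of letters and not of factor binding. PSMB10 and PSME2 held the interferon element close to the start, from 21 to 12 and from 28 to 19 bases before it, while in PSMA4 it lay from 240 to 231 bases before the start. In PSME1 the match lay within the 50 bases after the start, which are not printed. PSMA4, PSMA6 and PSMC6 each held a GC box within the last 50 bases. In windows of 300 bases, with 50 bases after the start, 44 of the 50 genes had an entry. The interferon element was in 6 of these 44 (13.6%), against 3.65% of the 27305 windows of all genes, namely in PSMA4, PSMB4, PSMB10, PSME1, PSME2 and PSMG4. The antioxidant response element was in 13 (29.5%) against 13.6%, the GC box in 30 (68.2%) against 44.6%, the CCAAT box in 21 (47.7%) against 35.7%, and the gamma-activated site in 5 (11.4%) against 7.88%. The median log2 FC was -0.14 for the 13 tested genes with the antioxidant response element and -0.17 for the 29 without it, and -0.09 for the 6 with the interferon element and -0.16 for the 36 without it.

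Genes that act on the proteasome from outside the symbol pattern were followed as lists. Of 19 partners of the proteasome, all tested, 14 (73.7%) had a log2 FC below 0, against 51.9% of all genes, with a median of -0.09. With edgeR 0 passed the adjusted p-value, and the unadjusted p-value called 4 lower (21.1%, against 11.5% of all genes) and 0 higher (11.9% of all genes). POMP, the maturation factor of the core, had 88.0, 84.9 and 78.8 CPM in ACM and 92.3, 96.6 and 88.6 CPM in UCM, a log2 FC of -0.14 (edgeR adjusted p = 0.275). TXNL1, a thioredoxin on the 19S cap, and RAD23B, a shuttle for ubiquitinated proteins, had values of -0.27 and -0.24 (edgeR adjusted p = 0.0711 and 0.0889). The 7 ubiquitin and E1 enzyme genes had a median of -0.0048 and 0 at the adjusted p-value with edgeR (1 higher and 1 lower at the unadjusted p-value), the lower being RPS27A with -0.20 and the higher UBA6 with 0.18.

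Of 10 genes on the NFE2L1 axis, 2 passed the adjusted p upwards and 1 downwards, against 3.35% and 2.21% of all genes. NFE2L1 itself had 242, 254 and 233 CPM in ACM and 206, 208 and 213 CPM in UCM. All ACM values lay above UCM, with a log2 FC of 0.22 (SE 0.06, edgeR adjusted p = 0.0730), a sign opposite to that of the constitutive subunits. NFE2L1 was called higher by DESeq2 (adjusted p = 0.0326). SYVN1, a ubiquitin ligase of the endoplasmic reticulum, had 91.0, 92.4 and 80.1 CPM in ACM and 61.9, 68.4 and 62.9 CPM in UCM (log2 FC 0.45, SE 0.08, edgeR adjusted p = 0.0132). MAFF, a small MAF partner, had 30.1, 40.9 and 29.6 CPM in ACM and 19.8, 11.2 and 14.5 CPM in UCM (log2 FC 1.14, SE 0.22, edgeR adjusted p = 0.0304). Both were higher in every ACM culture. NGLY1, the deglycosylase that NFE2L1 needs for its activation, was lower, with 41.1, 40.6 and 40.1 CPM in ACM and 50.9, 48.5 and 49.9 CPM in UCM. Its log2 FC was -0.29 (SE 0.07, edgeR adjusted p = 0.0434, between 0.0303 and 0.183 over the alternatives).

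Interferon genes were examined beside the immunoproteasome. IFNB1 and IFNG, the genes of interferon beta and gamma, had 0 counts in every library. Of the 15 tested interferon receptor and factor genes, 12 had a log2 FC above 0, against 48.1% of all genes, and 1, IFNGR2, was higher at the adjusted p-value (3.35% of all genes). IFNGR2, a chain of the interferon gamma receptor, had 56.8, 68.5 and 58.1 CPM in ACM and 47.8, 45.3 and 45.9 CPM in UCM, with groups apart (log2 FC 0.40, SE 0.09, edgeR adjusted p = 0.0301). IRF1, which is known to drive PSMB9 and PSMB8, had 43.0, 44.4 and 37.6 CPM in ACM and 40.0, 34.5 and 36.7 CPM in UCM, with overlapping groups. Of the 12 tested interferon-stimulated genes, 9 were above 0 and 5 were higher at the unadjusted p-value, against 48.1% of all genes above 0 and 11.9% higher. GBP2, a guanylate-binding protein, passed the adjusted p-value, as 3.35% of all genes did upwards. It had 2.8, 4.0 and 1.58 CPM in ACM and 0.853, 0.645 and 1.11 CPM in UCM, with groups apart (log2 FC 1.68, SE 0.40, edgeR adjusted p = 0.0376). Of the 15 tested genes of class I antigen processing, 8 were above 0 and 7 below, with 0 at the adjusted p-value and 2 higher at the unadjusted p-value with edgeR, PDIA3 (log2 FC 0.20) among them, where 11.9% of all genes were higher. TAP1, which transports proteasome products into the endoplasmic reticulum and shares a promoter region with PSMB9, had a log2 FC of -0.12 (SE 0.08) with overlapping groups.

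Leukocytes express the immunoproteasome at a high level, and markers of leukocytes and adipocytes were therefore read in the same libraries. Of 10 leukocyte markers, CD3E, MS4A1, LYZ and NKG7 had 0 counts in every library, PTPRC had a mean of 0.264 CPM in ACM against 0.233 in UCM, and CD68 alone had enough reads to be tested. CD68, which many other cells express in lysosomes, had 12.1, 29.1 and 16.0 CPM in ACM and 6.59, 4.79 and 5.36 CPM in UCM (log2 FC 1.76, SE 0.34, edgeR adjusted p = 0.0335). The list summed to 12.9 to 29.7 CPM in ACM and 6.02 to 7.06 CPM in UCM. Of 10 adipocyte markers, ADIPOQ, CIDEC, LEP and THRSP had 0 counts in every library, and the list summed to 14.7 to 17.7 CPM in ACM and 11.4 to 14.8 CPM in UCM. None of the 3 tested adipocyte markers passed the adjusted p-value (1, CFD, was higher at the unadjusted p-value with edgeR), and PPARG was at a mean of 12.9 CPM in ACM against 10.9 in UCM. A part of CD68 or of these markers in the proteasome values was not tested.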

How the data were processed

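RNA-seq libraries of 3 ACM and 3 UCM cultures were used. Per the labels, Trim Galore was run before STAR (GRCh38), and RSEM gave the gene tables of each library. Versions and the gene annotation are not given in the sources used here. The expected count that the authors deposited is not scaled for library size and shares out reads that fit several genes. TPM, also deposited, corrects for effective length and library sum. A further deposited table holds the authors' DESeq2 fold changes and p-values and was not used.

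Of 63140 gene identifiers, 61547 were found in GENCODE 44 with the same version, and the others were looked up without it. Expected counts were rounded and fitted in R 4.3.3 with edgeR 4.0.16 (filterByExpr, TMM, robust quasi-likelihood test, condition only), which left 14451 genes. The coefficient of biological variation was 0.115. CPM uses the TMM library sizes. Ratios used CPM with 0.5 added, and exact permutation tests were made with scipy 1.17.1. Counting and replicate spread at these depths limit what could be called, and the script was tested on simulated data. Replicate numbers were not used to pair the cultures in the main test. The correlations of deviations were 0.318, 0.0347 and 0.177, and 0.1 was required of each. This rule does not show that pairing is absent. Alternatives were DESeq2 1.42.0, limma 3.58.1 on log2 TPM, RLE factors, other filters, length offsets, a replicate block, protein-coding genes only and each library left out.

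The members and lists were chosen with earlier results of these data known. Values in every library are given for PSMB5 to PSMB10, PSME1 to PSME4, proteasome genes at the adjusted p-value, the 3 largest and 3 smallest log2 FC, and genes not tested. From each list up to 5 genes at the adjusted p-value are named, or else the 2 with the lowest p-values. PSMC1, PSMD11, PSMD6, PSMG1 and further genes were named after their values were seen. Of the 48 tested genes, 30 overlap another annotated gene. Values of some list genes are not reported here.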

Additional observations from a re-analysis of the deposited data

How the results depend on the processing

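The number of proteasome genes lower at the adjusted p-value was 3 with edgeR, where 2.21% of all genes were called lower. It was 5 with DESeq2 (3.07% of all genes), 6 with every gene that had a count (2.66%) and 6 with protein-coding genes only (2.99%). It was 1 with limma-trend on log2(TPM + 1) (0.913%) and 1 with effective lengths as offsets (0.927%). When single libraries were dropped it lay between 0 and 6 (0.42% to 3.9%). With the replicate number as a block it was 7, and the block moved the count of genes called lower over all genes from 320 to 703; ACM replicates 1 and 2 correlated best with the UCM library of the same number and ACM replicate 3 did not. The number of proteasome genes was 2 with RLE factors (2.03% of all genes), with at least 10 counts in every library (2.34%) and with log2(TPM + 0.1) (0.955%). No gene was higher at the adjusted p-value under any of these. The median log2 FC of the 48 genes lay between -0.16 and -0.10 over all alternatives. The count of genes with ACM values below UCM was an alternative chosen after seeing the data. It cannot fall when a library is dropped, so its range of 20 to 37 over dropped libraries does not measure stability. The share over all genes rose as well, from 15.1% to between 17.7% and 25.4%. The ratios of immunoproteasome to constitutive subunits kept their sign under all alternatives, but dropping single libraries moved PSMB8 over PSMB5 between 0.0175 (without ACM replicate 2) and 0.108 (without ACM replicate 1) and PSMB10 over PSMB7 between -0.1611 (without UCM replicate 1) and -0.0077 (without UCM replicate 3). Among named genes, the log2 FC changed sign for PSMB8 without ACM replicate 3 (-0.0498) and UCM replicate 1 (-0.034), within -0.0498 to 0.0688 over dropped libraries, for PSMB9 without UCM replicate 1 (-0.0159, up to 0.2085), for PSMG4 without UCM replicate 2 (-0.0134, up to 0.1165) and with TPM (-0.0261 and -0.0265 with 1 and 0.1 added), and for ERBB2 with TPM (-0.0577 and -0.0593) and with length offsets (-0.039). Calls at the adjusted p-value were lost for SYVN1 without ACM replicate 2 or UCM replicate 3, for CD68 when any single UCM replicate was dropped and under the replicate block, for MAFF under the block and on dropping any library other than UCM replicate 1, for NGLY1 on dropping any library, for IFNGR2 on dropping any but ACM replicate 1 or UCM replicate 1, and for GBP2 on dropping any but ACM replicate 3 or UCM replicate 1. TPM and length offsets also ended the calls of NGLY1, IFNGR2 and GBP2. Calls were gained under the replicate block for NFE2L1, PSME3, RAD23B, TXNL1, RPS27A and PDIA3 (adjusted p between 0.0261 and 0.0478), for NFE2L1 also with DESeq2 (0.0415 under the block), and for RAD23B with every gene that had a count and without UCM replicate 1. The causes were not tested.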

Other observations

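Genes of the same symbol pattern that are not protein-coding were read as well. Of these 51 genes, 44 are pseudogenes, 37 had no count in any library and 5 were tested, with none at the adjusted p-value or at the unadjusted p-value with edgeR. PSMA3-AS1, an antisense RNA at PSMA3, was counted 475, 334 and 270 times in ACM against 531, 314 and 289 in UCM. For PSMD6-AS2 the ACM counts were 43, 8 and 7 and the UCM counts 42, 13 and 9. In both of these antisense RNAs the highest count of each medium was that of replicate 1. Those of PSMB8-AS1 were 45, 41 and 57 and then 65, 36 and 36. The strand setting of the counting is not given in the sources used here. PSMA3 and PSMA3-AS1 had whole expected counts in all 6 libraries, and PSMD6 and PSMD6-AS2 in 1 library each.

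The effective length that RSEM gave a gene, which follows the mix of its transcripts, shifted by more than 0.1 on the log2 scale between the media for 3 of the 48 tested proteasome genes. PSME3 averaged 2127 bases in ACM and 1933 bases in UCM, and PSMB9 and PSMD9 averaged 646 and 810 bases in ACM and 714 and 889 bases in UCM. These shifts were not tested.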
